A study of Sus scrofa with 12 samples.

Results

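The addition of S100A4 protein to PDGF-BB was examined in smooth muscle cells cultured from pig (Sus scrofa) coronary artery, by setting 3 RNA sequencing libraries of cells given PDGF-BB and S100A4 together against 3 libraries of cells given PDGF-BB alone. These are 6 of the 12 libraries of the study. Libraries were paired by their replicate number, 1 to 3, and genes were taken where at least 10 reads were counted in 3 or more of the 6 libraries, which left 12105 of 21153 genes and put 9048 below the filter. Just inside this limit were 195 genes with such counts in exactly 3 libraries, and just outside it 316 genes with such counts in exactly 2. The comparison asks how the transcriptome of cells given both proteins together differs from that of cells given PDGF-BB alone.

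All groups were primary cultures, labelled as differentiated and contractile, between passages 6 and 11. They were plated in 35 mm dishes at 60 cells per mm2, in DMEM holding 10% fetal calf serum, and 24 h later were treated for 4 h. The PDGF-BB+S100A4 cells received 30 ng/ml PDGF-BB and 1 µg/ml S100A4, the PDGF-BB cells received 30 ng/ml PDGF-BB, the S100A4 cells received 1 µg/ml S100A4, and control cells received neither. Serum was thus part of every group. The design text writes the added protein as oS100A4 and the treatment protocol as S100A4. What the prefix stands for is not stated, so its form or species of origin is unknown here, and it is called S100A4 throughout. The design text says that the cells came from 3 animals, and neither their breed nor their age was found in the sources. Each group had 3 libraries, and nothing in the labels ties a replicate number to an animal, so p-values measure only spread among these libraries. Where a fit removes differences between replicate numbers, its p-values measure only the spread that is left.

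PDGF-BB is a platelet-derived growth factor made of a pair of B chains. It binds PDGF receptor beta and drives growth and migration of smooth muscle cells. S100A4 is a small calcium-binding protein that cells also release, and outside the cell it has been reported to act through RAGE and TLR4, which activate NF-kB. NF-kB is a family of dimeric transcription factors held in the cytoplasm by IkB proteins, and its target genes encode chemokines, cytokines, leukocyte adhesion molecules, survival factors and its own inhibitors.

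The 6 libraries held 24583744 to 32448438 counts. Values are given as CPM, counts scaled to a fixed library size by TMM, a factor that corrects library size for differences in composition. On CPM, 1 unit stood for 23.0 to 31.0 counts in these libraries. In a principal component analysis of the 6 libraries, the first component (64.4% of the variance) set replicate 2 of both groups apart and the second (18.3%) set replicate 1 apart from replicate 3. The third (11.2%) had all 3 PDGF-BB+S100A4 libraries on its negative side and all 3 PDGF-BB libraries on its positive side. The summed CPM of the 8 fibroblast markers found averaged 1084 in the 2 replicate 2 libraries and 394 in the other 4, and that of the 26 contractile and actin genes averaged 33284 and 54424. Because replicate number moved so much of the expression, differences were tested within replicate numbers, with edgeR's quasi-likelihood test and replicate number as a block in a fit of all 12 libraries. A gene was called where its p, adjusted by Benjamini-Hochberg over the 12105 genes, was under 0.05.

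The label of smooth muscle was borne by ACTA2 (smooth muscle actin) at 15997, 6653 and 15006 CPM in replicates 1 to 3 of PDGF-BB+S100A4, against 16333, 6809 and 16339.9 CPM in PDGF-BB, and by MYH11 (smooth muscle myosin heavy chain) at 316 to 1296 CPM against 258 to 1349 CPM. TAGLN, another smooth muscle marker, was far lower than both, at 4.09 to 7.13 CPM against 3.91 to 6.86 CPM. The reason for its low level was not tested. Of the 6 T cell markers found, 3 had no count in any of the 6 libraries, and their summed level lay between 0.0397 and 0.0860 CPM with PDGF-BB+S100A4 and between 0 and 0.0405 CPM with PDGF-BB. The 11 macrophage markers summed to 39.0 to 69.7 CPM against 39.0 to 72.8 CPM, and the 8 endothelial markers to 133 to 209 CPM against 120.5 to 222 CPM. Most of the macrophage sum came from CD86, with 896 to 1516 counts against 1087 to 1924 counts. CD68 had 16 to 26 counts against 18 to 32, and 3 of the 11 had no count in the 6 libraries. No tested member of the endothelial (6), macrophage (4) or epithelial and mesothelial (1) lists was called. Of 6 pericyte markers tested, 1 rose (ANPEP, 0.16 ± 0.03), and the 8 found summed to 755 to 2576 CPM against 741 to 2629 CPM. In bulk RNA, fewer cells of a type and less RNA per cell cannot be told apart.

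Among receptor genes for these proteins, TLR4 and PDGFRB were tested and not called. TLR4 had 0.739, 12.1 and 2.41 CPM with PDGF-BB+S100A4 and 1.29, 7.94 and 1.61 CPM with PDGF-BB (log2 fold change 0.44 ± 0.29 (SE), adjusted p = 0.42). PDGFRB, which encodes PDGF receptor beta, had 832, 387 and 808 CPM against 865, 430.2 and 831 CPM (−0.08 ± 0.04, adjusted p = 0.22). AGER, the gene of RAGE, had 3, 4 and 2 counts against 1, 0 and 0 counts, too few to be tested. PDGFRA, whose receptor alpha also binds PDGF-BB, rose by 0.57 ± 0.09 (adjusted p = 0.0017). The message of S100A4 itself had 86.7, 117 and 69.5 CPM against 77.6, 124 and 59.5 CPM (0.09 ± 0.06, adjusted p = 0.45). PDGFB, which encodes the chain that makes up PDGF-BB, rose to 17.3, 15.2 and 28.1 CPM in PDGF-BB+S100A4 libraries, against 6.39, 11.6 and 14.1 CPM in PDGF-BB libraries (0.94 ± 0.24, adjusted p = 0.027). The PDGFB call was lost in DESeq2 (adjusted p = 0.071), in limma-voom (0.060) and in 7 of the 9 fits that left out a library or a replicate number, with an adjusted p up to 0.26 without replicate 3.

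Among called genes, S100A4 added to PDGF-BB gave more rises than falls. Of the 12105 genes, 626 were higher (5.17%) and 247 were lower (2.04%) in PDGF-BB+S100A4 than in PDGF-BB. With upper-quartile scaling in place of TMM the counts were 537 higher and 394 lower, so that the higher genes made up 57.7% of the calls, against 71.7% with TMM. Most of the differences were small: 382 of the 626 and 210 of the 247 were under 0.5 on the log2 scale, and the median was 0.39 (1.31-fold) among higher genes and −0.31 (0.808-fold) among lower ones. At least 2-fold changes were seen for 97 higher and 4 lower genes, and at least 4-fold changes for 29 higher and 0 lower genes. The 97 include 4 genes that passed the count filter only through the PDGF-BB+S100A4 libraries. Among the 4 lower genes, 3 (INA, ADAMTS15 and SLC16A12) passed it only through the PDGF-BB libraries. Such genes had to differ in that direction.

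Among the 626 higher genes the median log2 difference within a pair was 0.39 in replicate 1, 0.38 in replicate 2 and 0.39 in replicate 3, and among the 247 lower genes it was −0.30, −0.28 and −0.34. Calls used these same differences, so this is a description. Of the 626 genes, 324 also had all PDGF-BB+S100A4 libraries above all PDGF-BB libraries, as did 5.93% of all tested genes, and 74 of the 247 had all of them below, as did 2.83% of all tested genes. Without the replicate block, the same test called 34 genes higher (0.281%), all of them among the 626, and 0 lower, with 415 higher and 174 lower at an unadjusted p under 0.05. DESeq2 with the block called 532 higher and 225 lower. The count of higher genes was 286 without replicate 1, 278 without replicate 3, 412 without PDGF-BB+S100A4 replicate 3 and 394 without PDGF-BB replicate 2. Without replicate 2 of all groups, 696 were higher beside 625 lower, so the excess of rises was small there. The count of lower genes lay between 40 (without replicate 3) and 625 (without replicate 2), with 71 without replicate 1, 463 and 88 without PDGF-BB+S100A4 replicates 2 and 3, and 123, 158 and 124 without PDGF-BB replicates 1 to 3. The common biological coefficient of variation was 5.14% with the block and 26.2% without it.

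**Figure D1:**
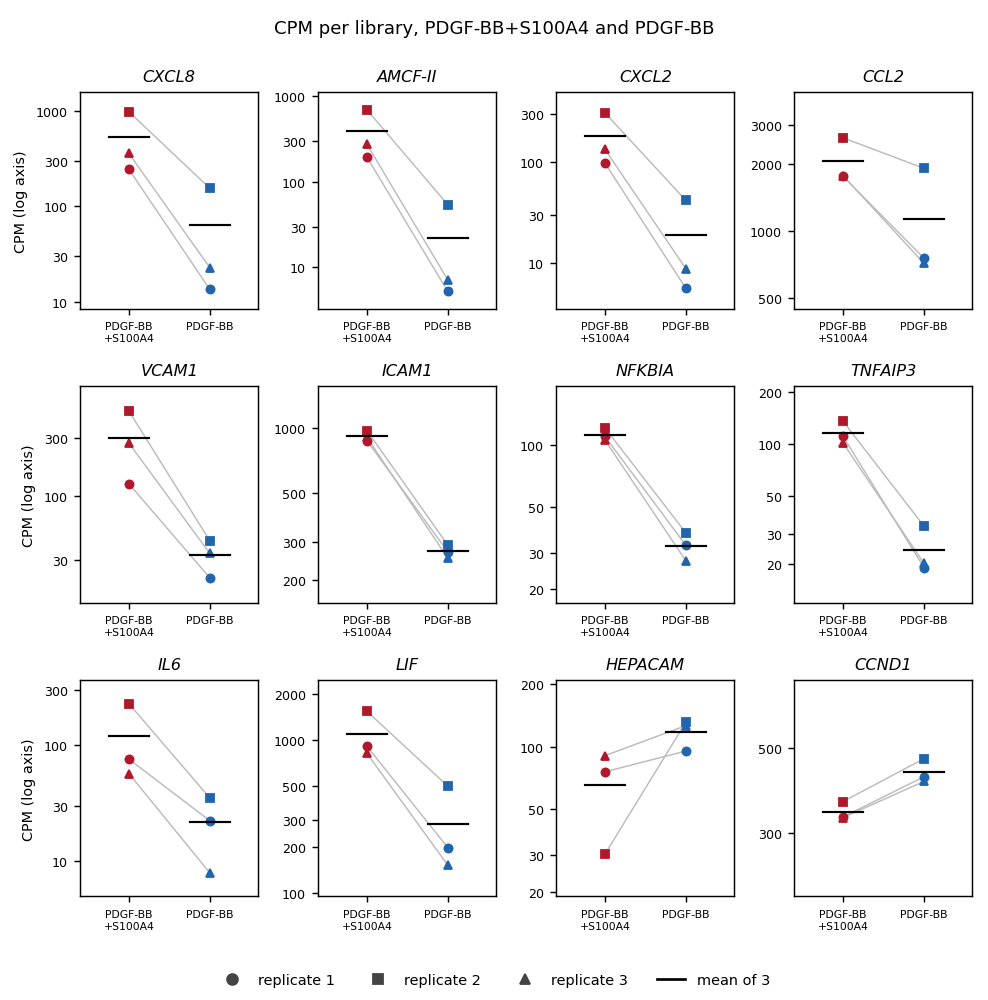
CPM per library on a log axis for 12 genes, PDGF-BB+S100A4 left of PDGF-BB, with a grey line joining libraries of the same replicate number and a black bar at the mean of 3. All lines of CXCL8, AMCF-II, CXCL2, VCAM1, ICAM1, NFKBIA, TNFAIP3, IL6 and LIF run lower in PDGF-BB, while HEPACAM and CCND1 run higher there, and the chemokine genes sit highest in replicate 2 of both groups.

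Of 25 tested genes of NF-kB itself and of its inhibitors, 13 rose, 0 fell and 12 were not called, with a median log2 fold change of 0.41 against 0.0011 over all tested genes. NFKBIA, which encodes the inhibitor IkB-alpha, had 111, 122 and 106 CPM in PDGF-BB+S100A4 libraries and 32.6, 37.5 and 27.3 CPM in PDGF-BB libraries. All libraries with S100A4 lay far above those without, a 3.5-fold rise (1.81 ± 0.07, adjusted p = 3.9e-09). TNFAIP3, which encodes the ubiquitin-editing inhibitor A20, had 111, 135 and 101 CPM against 19.1, 33.3 and 20.2 CPM, a 4.84-fold rise (2.27 ± 0.08, adjusted p = 1.7e-09). The precursor subunits rose about alike: NFKB1 had 165, 205 and 195 CPM against 82.8, 106 and 93.3 CPM (1.00 ± 0.05), and NFKB2 had 87.9, 102 and 85.6 CPM against 47.5, 54.1 and 44.9 CPM (0.91 ± 0.04). RELB (0.82 ± 0.07), REL (0.41) and RELA (0.34) rose as well, so that all 5 subunit genes were higher. Among regulators, NFKBIE (1.00 ± 0.07), the A20 partner TNIP1 (0.98), the nuclear IkB gene NFKBIZ (0.75), TRAF1 (0.64) and NFKBIB (0.48) rose, with MAP3K8, a kinase that links NF-kB1 to ERK (1.68 ± 0.17). Of the 13, the 7 genes NFKBIA, TNFAIP3, NFKB1, NFKB2, RELB, NFKBIE and MAP3K8 were also called without the block.

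The 3 largest rises among genes with a symbol and a mean of at least 1 CPM were chemokines. Of 7 chemokine genes tested, 5 rose and 0 fell, with a median of 1.71. AMCF-II (ENSSSCG00000008957), a porcine CXC chemokine first described as an alveolar macrophage chemotactic factor, had 195, 698 and 276 CPM in PDGF-BB+S100A4 libraries and 5.26, 54.2 and 7.15 CPM in PDGF-BB libraries. The lowest library with S100A4 was above the highest without it, a 22.9-fold rise (4.52 ± 0.23, adjusted p = 1.9e-08). CXCL8 (ENSSSCG00000008953), the neutrophil chemokine IL-8, had 243, 972 and 357 CPM against 13.5, 154 and 22.8 CPM, a 12.4-fold rise (3.64 ± 0.30, adjusted p = 3.5e-06). CXCL2 (ENSSSCG00000008959), another neutrophil chemokine, had 97.9, 308 and 134 CPM against 5.62, 41.8 and 8.79 CPM, a 12-fold rise (3.58 ± 0.25, adjusted p = 5.7e-07). In all 3 genes replicate 2 was the highest library of both groups, and its within-pair difference was the smallest: for CXCL8 2.66, against 4.16 in replicate 1 and 3.96 in replicate 3.

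In RefSeq's annotation of Sscrofa11.1 these 3 genes lie on one stretch of chromosome 8, CXCL8 at 69932646-69935861, AMCF-II at 70008225-70010360 and CXCL2 at 70157253-70159145. The sources do not say how reads were counted that match related chemokine genes equally well, so the split of reads among them is uncertain. The monocyte chemokine CCL2 had 1757, 2616 and 1772 CPM against 756, 1909.5 and 716 CPM (1.00 ± 0.16, adjusted p = 0.0015), a rise that missed the threshold when replicate 1 of all groups was left out (adjusted p = 0.069). Replicate 2 without S100A4 was above replicates 1 and 3 with it. CCL5, which attracts T cells and monocytes, had 4.78, 38.6 and 12.7 CPM against 2.71, 5.24 and 7.44 CPM (1.71 ± 0.39, adjusted p = 0.016), and these groups overlapped. None of the 5 chemokines was called without the block. For AMCF-II, CXCL8 and CXCL2 the adjusted p was then 0.43, 1.00 and 0.75.

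Of 12 cytokine and colony-stimulating factor genes tested, 7 rose and 0 fell, with a median of 0.47. IL1A, an alarm cytokine that acts on the IL-1 receptor, had 16.9, 109 and 33.1 CPM with PDGF-BB+S100A4 and 2.59, 9.18 and 2.90 CPM with PDGF-BB, a 10.5-fold rise (3.39 ± 0.16, adjusted p = 9.9e-09). IL6 had 75.9, 228 and 57.0 CPM against 22.4, 35.2 and 7.96 CPM, a 5.35-fold rise (2.42 ± 0.27, adjusted p = 5.8e-05). LIF, a cytokine of the IL-6 family, had 912, 1542 and 819 CPM against 199, 499.8 and 152 CPM, a 4.25-fold rise (2.09 ± 0.13, adjusted p = 2.3e-07). In these 3 genes every library with S100A4 was above every library without it. CSF2, the granulocyte-macrophage colony-stimulating factor, rose at a low level, with 28, 91 and 40 counts against 2, 12 and 8 counts (3.15 ± 0.38, adjusted p = 0.00032). IL11 (0.94 ± 0.19), CSF1 (0.55 ± 0.12) and CLCF1 (0.39) also rose, while IL18, IL33, IL34, TNFSF9 and EBI3 were tested and not called. Without the block none of the 7 was called, with an adjusted p of 0.38 for IL1A, 0.75 for IL6 and 0.52 for LIF.

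Leukocyte adhesion and antigen presentation genes followed, with 10 of 22 higher, 0 lower and a median of 0.28. VCAM1, the ligand of integrin VLA-4 on monocytes and lymphocytes, had 127, 504 and 275 CPM in PDGF-BB+S100A4 libraries and 21.4, 43.3 and 34.0 CPM in PDGF-BB libraries. This was an 8.47-fold rise (3.08 ± 0.17, adjusted p = 4.0e-08; 0.048 without the block), with the largest within-pair difference in replicate 2 (3.54). ICAM1, a ligand of leukocyte beta-2 integrins, had 871, 969 and 902 CPM against 269, 289 and 252 CPM, a 3.39-fold rise (1.76 ± 0.07, adjusted p = 3.9e-09). ICAM4, which lies 887 bp from ICAM1 on chromosome 2 (69108610-69110053), had 10.4, 12.1 and 11.6 CPM against 2.18, 2.44 and 2.19 CPM, a 5.01-fold rise (2.33 ± 0.13, adjusted p = 4.6e-08). The pairs of ICAM1 and of ICAM4 agreed closely, at 1.69 to 1.84 and 2.21 to 2.37. Since the sources do not say whether strand was used, part of the ICAM4 counts could belong to its neighbour. SELP, or P-selectin, an adhesion molecule known from platelets and endothelium, rose to 19.7, 279 and 30.9 CPM against 4.09, 147 and 6.63 CPM (1.64 ± 0.29, adjusted p = 0.0028). SELP was highest in replicate 2 of both groups. The summed CPM of the endothelial markers averaged 216 in replicate 2 and 140.4 in the other replicates, and that of the fibroblast markers 1084 and 394. The part of either cell type in the SELP result was not tested. CD83 (1.23 ± 0.12), the co-stimulatory receptor CD40 (0.92 ± 0.08), the hyaluronan receptor CD44 (0.42) and the peptide-loading genes TAP1 (0.22), TAP2 (0.26) and TAPBP (0.22) also rose.

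Of 27 genes for Toll-like, IL-1, TNF and RAGE receptors and their adaptors, 10 rose and 0 fell (median 0.15). IRAK2, a kinase that carries signals from the Toll-like and IL-1 receptors, had 18.2, 27.1 and 27.7 CPM with PDGF-BB+S100A4 and 7.73, 8.69 and 9.57 CPM with PDGF-BB (1.48 ± 0.10, adjusted p = 5.7e-07). TLR2 had 2.13, 4.01 and 2.19 CPM against 0.971, 1.53 and 0.966 CPM (1.25 ± 0.23, adjusted p = 0.0033). NLRP3, the sensor of the inflammasome, had 50.5, 126 and 94.2 CPM against 22.4, 66.6 and 44.0 CPM (1.06 ± 0.12, adjusted p = 7.9e-05). Replicate 1 with S100A4 was below replicate 2 without it in NLRP3, whereas the groups of IRAK2 and TLR2 did not overlap. The IL-1 receptor chains IL1RAP (0.67 ± 0.09) and IL1R1 (0.33), the death receptor FAS (0.61 ± 0.08), IL18R1 (0.48), IRAK3 (0.64), TICAM1 (0.45) and RIPK2 (0.29) rose too. Of 13 genes tested on a list of decay and translation control of inflammatory messages, which also held WTAP, 4 rose and 0 fell. They were the RNase ZC3H12A, known as regnase-1 (49.4, 40.0 and 61.5 CPM against 16.6, 15.8 and 20.8 CPM; 1.49 ± 0.08, adjusted p = 3.7e-08), its relative ZC3H12C (0.63 ± 0.06), the decay factor RC3H1 (0.31 ± 0.06) and WTAP, a subunit of the m6A writer (0.23 ± 0.05).

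Cell survival and death genes had 8 of 20 higher and 0 lower (median 0.14). The anti-apoptotic members were IER3 (262, 367 and 196 CPM with PDGF-BB+S100A4 and 83.3, 159 and 53.4 CPM with PDGF-BB; 1.58 ± 0.10), MCL1 (0.53 ± 0.05), the caspase-8 inhibitor CFLAR (0.60 ± 0.07) and BIRC3 (0.30). BAK1 (0.49 ± 0.06) and PMAIP1 (0.61 ± 0.12), which rose as well, are known to promote apoptosis. Among 18 genes for antioxidant, iron and zinc handling, 3 rose and 1 fell. SOD2, mitochondrial superoxide dismutase, had 273, 479 and 339 CPM against 125, 161 and 135 CPM, a 2.54-fold rise (1.35 ± 0.09, adjusted p = 3.9e-07; 0.064 without the block). The zinc and iron importer SLC39A14 (0.69 ± 0.09) and thioredoxin reductase TXNRD1 (0.58 ± 0.08) rose in all 3 pairs. The iron exporter SLC40A1, or ferroportin, fell to 35.4, 75.6 and 27.1 CPM against 58.1, 91.0 and 44.0 CPM (−0.52 ± 0.15). Its adjusted p of 0.0496 was at the threshold, and the call was lost in DESeq2 and limma-voom.

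**Figure D2:**
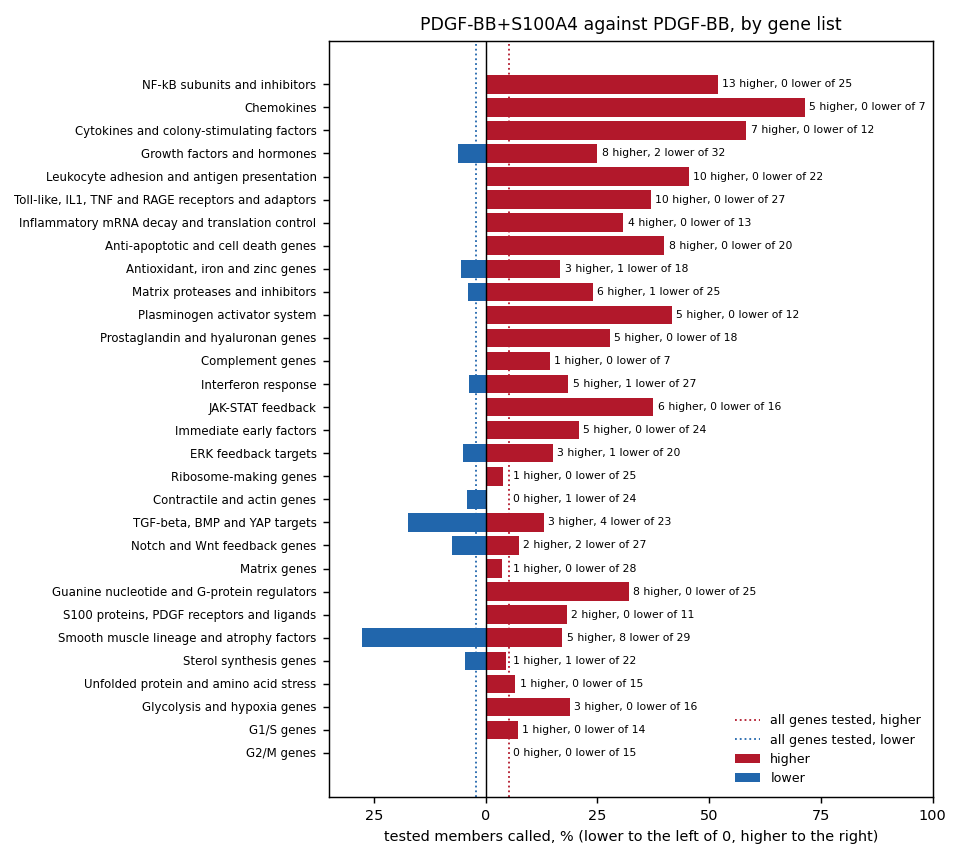
Percent of the tested members of 30 gene lists that were called higher (red, to the right of 0) or lower (blue, to the left) in PDGF-BB+S100A4 against PDGF-BB, with the counts beside each bar and dotted lines at the shares over all tested genes, 5.17% higher and 2.04% lower. Chemokines (5 of 7), cytokines (7 of 12) and NF-kB genes (13 of 25) stand furthest to the right, and smooth muscle lineage and atrophy factors (8 of 29) furthest to the left.

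Growth factors and hormones were mixed, with 8 of 32 higher and 2 lower (median 0.17). The EGF receptor ligand HBEGF had 42.5, 66.2 and 50.03 CPM with PDGF-BB+S100A4 and 19.1, 46.8 and 22.0 CPM with PDGF-BB (0.91 ± 0.10, adjusted p = 7.6e-05). BDNF, a neurotrophin, fell to 5.0, 4.25 and 4.39 CPM with PDGF-BB+S100A4, against 5.34, 7.55 and 8.18 CPM with PDGF-BB (−0.63 ± 0.17, adjusted p = 0.039), and the groups did not overlap. VEGFA (0.70 ± 0.14), EREG (0.91 ± 0.15), ANGPTL4 (0.75), the parathyroid hormone-related protein gene PTHLH (0.63 ± 0.08) and GDF15 (0.44 ± 0.07) rose, and TGFB2 fell (−0.39 ± 0.06).

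Genes that break down or remodel matrix rose in part. In the plasminogen activator system 5 of 12 rose and 0 fell (median 0.13). Urokinase (PLAU) had 1527, 1466 and 1647 CPM with PDGF-BB+S100A4 and 915, 997 and 979 CPM with PDGF-BB (0.68 ± 0.08, adjusted p = 0.00017). The inhibitor SERPINB2 (PAI-2) had 60.0, 294 and 37.2 CPM against 10.7, 63.5 and 4.22 CPM, a 6.24-fold rise (2.64 ± 0.37, adjusted p = 0.00050). It was the only one of the 15 largest named rises in which the groups overlapped, since replicate 2 without S100A4 was above replicates 1 and 3 with it. The urokinase receptor PLAUR (0.31 ± 0.06), the inhibitor SERPINE2 (0.37 ± 0.04) and tissue factor, F3 (0.51 ± 0.13), also rose. Of 25 matrix proteases and inhibitors 6 rose and 1 fell (median 0.05). The aggrecanase ADAMTS4 had 209, 346 and 230.2 CPM against 84.4, 76.7 and 89.8 CPM (1.59 ± 0.20, adjusted p = 0.00022), and the collagenase MMP1 (1.02 ± 0.26), MMP11 (0.51 ± 0.06), cathepsin L (CTSL, 0.36), the shedding protease ADAM17 (0.30 ± 0.05) and the inhibitor TIMP1 (0.44 ± 0.08) rose, while ADAMTS15 fell near the detection limit (0.198 to 0.304 CPM against 0.423 to 0.870 CPM). ADAMTS15 passed the count filter only through the PDGF-BB libraries, where it is higher, and so had to differ in that direction. Of 18 prostaglandin and hyaluronan genes 5 rose and 0 fell (median 0.28), among them the prostaglandin E synthase PTGES (34.9, 54.7 and 46.5 CPM against 15.9, 32.7 and 19.8 CPM; 1.02 ± 0.09) and the hyaluronan-binding protein gene TNFAIP6 (22.0, 26.0 and 32.1 CPM against 11.2, 5.47 and 12.05 CPM; 1.52 ± 0.18).

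Transcription factors and signalling feedback genes rose in part. Of 24 immediate early factors 5 rose and 0 fell (median 0.15). CEBPD, a factor of the acute phase, had 41.7, 59.9 and 45.9 CPM with PDGF-BB+S100A4 and 14.5, 31.1 and 15.7 CPM with PDGF-BB (1.31 ± 0.19, adjusted p = 0.00051), and NR4A2 (1.03 ± 0.13), CEBPB (0.59 ± 0.06), MAFF (0.53 ± 0.06) and NR4A3 (0.52) rose beside it. Of 27 interferon response genes 5 rose and 1, USP18 (−0.31), fell (median 0.05). IRF1 had 27.9, 37.0 and 30.0 CPM against 19.7, 21.7 and 14.1 CPM (0.78 ± 0.11, adjusted p = 0.00037), and IRF3 (0.22 ± 0.04), STAT3 (0.21 ± 0.04), GBP1 (0.52) and IRF5 (1.11 ± 0.27, from 8 to 34 counts against 7 to 18 counts, not called in DESeq2) rose too. In the list of JAK-STAT receptors and feedback 6 of 16 rose and 0 fell (median 0.20), among them the receptors of LIF and oncostatin M, LIFR (0.43 ± 0.07) and OSMR (0.53 ± 0.09). Of 25 G-protein and guanine nucleotide regulators 8 rose and 0 fell (median 0.20), including the bradykinin B2 receptor BDKRB2 (23.7, 40.2 and 30.7 CPM against 11.3, 21.9 and 14.3 CPM; 1.01 ± 0.09) and RGS16 (0.92). Of 20 ERK feedback targets 3 rose and 1 fell (median 0.19). LIF and IER3, given above with other lists, and DUSP5 (0.54 ± 0.15, not called in DESeq2 or limma-voom) rose. Cyclin D1 (CCND1) fell to 331, 362 and 329 CPM against 420.0, 468 and 409 CPM (−0.34 ± 0.05, adjusted p = 0.00051).

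Several large rises were of other kinds. RND1, a small GTPase that opposes actin stress fibres and is on the list of G-protein and guanine nucleotide regulators, had 5.26, 11.0 and 8.26 CPM with PDGF-BB+S100A4 and 0.526, 1.04 and 0.676 CPM with PDGF-BB, a 10.9-fold rise (3.45 ± 0.17, adjusted p = 1.6e-08; 0.0069 without the block). AKR1D1, a steroid 5-beta-reductase known from liver, had 1.48, 6.82 and 2.88 CPM against 0.445, 0.488 and 0.612 CPM (2.82 ± 0.29, adjusted p = 2.8e-05). The glycoprotein gene PDPN, podoplanin, had 34.6, 10.3 and 30.8 CPM against 4.81, 2.25 and 5.19 CPM, a 6.05-fold rise (2.60 ± 0.12, adjusted p = 9.9e-09). For PDPN replicate 2 was the lowest library of both groups, the reverse of the chemokines. PDPN is also on the list of fibroblast markers, of which it and PDGFRA (43.9, 144 and 14.6 CPM against 25.7, 113 and 9.11 CPM; 0.57 ± 0.09, adjusted p = 0.0017) rose, while the other 6 tested were not called. The summed level of that list was 330.4 to 1099 CPM with PDGF-BB+S100A4 and 339.6 to 1068 CPM with PDGF-BB. ADORA2A, the adenosine receptor of the A2 class, had 7.26, 5.71 and 7.83 CPM against 2.39, 0.846 and 1.42 CPM (2.22 ± 0.23, adjusted p = 3.8e-05), and RNF121, a RING-finger ubiquitin ligase, had 1.96, 4.21 and 3.01 CPM against 0.526, 0.684 and 0.741 CPM (2.22 ± 0.21, adjusted p = 1.2e-05). NDRG1, a stress-responsive gene, had 242, 240.5 and 243 CPM against 128, 119 and 127 CPM (0.96 ± 0.06, adjusted p = 1.2e-07; 0.0011 without the block). The widest difference of all tested genes was that of ENSSSCG00000016254, for which no symbol was found, with 10.3, 31.4 and 29.3 CPM against 0.243, 0.0651 and 0.0322 CPM (7.78 ± 0.34). It is one of 5 genes that passed the count filter only through the PDGF-BB+S100A4 libraries and so had to differ.

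**Figure D3:**
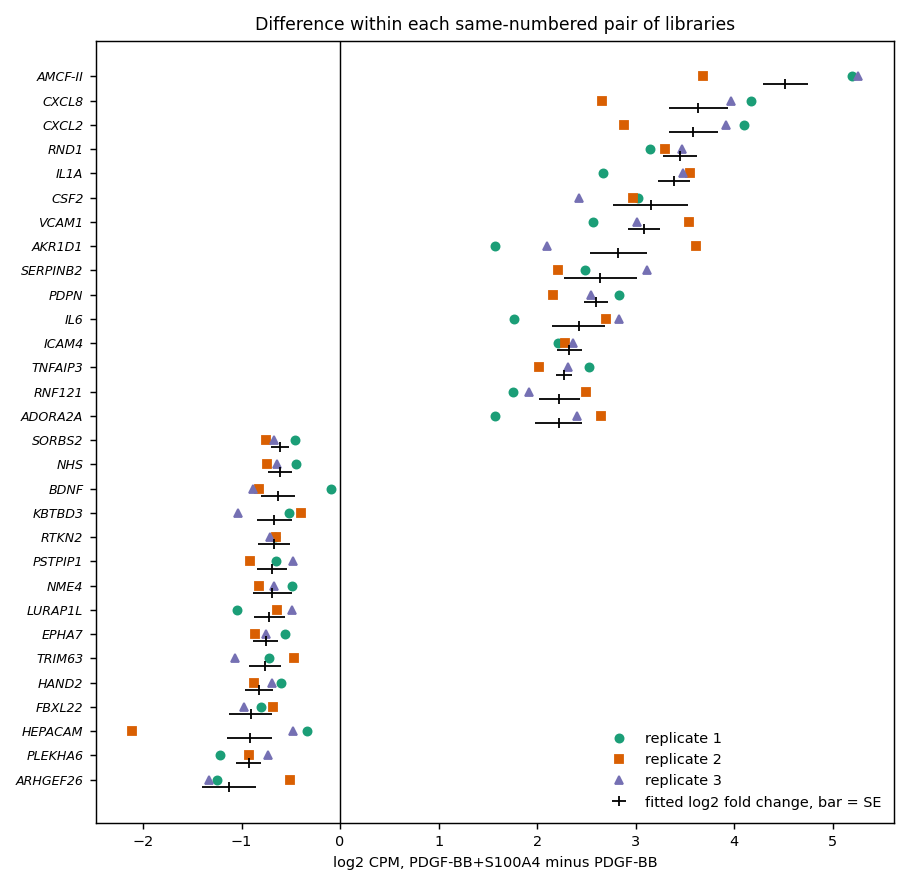
Difference in log2 CPM between PDGF-BB+S100A4 and PDGF-BB within each replicate number, for the 15 named genes with the largest rises and the 15 with the largest falls, with the fitted log2 fold change and its SE as a black bar. All differences of the rises lie above 0 and all of the falls below 0. Replicate 2 of HEPACAM (−2.11) lies well below its other pairs, and replicate 1 of BDNF (−0.09) lies near 0.

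The falls were smaller and depended more on single libraries. Among genes with a symbol and a mean of at least 1 CPM, the largest was that of ARHGEF26, a guanine nucleotide exchange factor, with 0.739, 0.595 and 0.516 CPM in PDGF-BB+S100A4 libraries and 1.86, 0.879 and 1.42 CPM in PDGF-BB libraries (−1.13 ± 0.27, adjusted p = 0.022). PLEKHA6 fell to 2.13, 11.5 and 4.34 CPM against 5.06, 21.8 and 7.28 CPM (−0.93 ± 0.12, adjusted p = 0.00031), by −1.22, −0.92 and −0.73 within the pairs, although the groups overlapped. HEPACAM, an immunoglobulin-type adhesion molecule, had 75.6, 30.3 and 90.5 CPM against 95.2, 131 and 126 CPM (−0.92 ± 0.23, adjusted p = 0.025). Its fall came mostly from replicate 2, where the difference was −2.11, against −0.33 and −0.48 in the others, and the adjusted p was 0.090 without replicate 3, 0.12 without PDGF-BB replicate 2 and 0.077 in DESeq2. SORBS2, an adaptor of actin and focal adhesions, had 85.0, 13.9 and 41.4 CPM against 117, 23.5 and 66.1 CPM (−0.61 ± 0.09, adjusted p = 0.00084). Of the 15 largest named falls, only PLEKHA6 and SORBS2 kept an adjusted p under 0.05 in all 9 fits that left out a library or a replicate number, whereas all 15 of the largest named rises did. Without the block 0 of the 15 falls and 5 of the 15 rises were called, the lowest adjusted p of the falls being 0.16.

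The list of muscle lineage and atrophy factors had the most falls, 8 of 29, beside 5 rises. Its median of 0.00122 was like that of all genes. The list was drawn up with earlier results of these data known. Its falls include genes of other kinds, EPHA7 and LURAP1L, so the count is a description. The basic helix-loop-helix factor HAND2 had 0.348, 7.14 and 1.46 CPM against 0.566, 13.1 and 2.42 CPM (−0.82 ± 0.14, adjusted p = 0.0022). The muscle ubiquitin ligase TRIM63, or MuRF1, had 1.57, 1.9 and 1.38 CPM against 2.63, 2.67 and 2.96 CPM (−0.76 ± 0.16, adjusted p = 0.0098). In TRIM63 the groups did not overlap, while in HAND2 replicate 2 was highest in both. The ephrin receptor EPHA7 (−0.75 ± 0.13), LURAP1L (−0.72 ± 0.16), TOX (−0.51), NFATC2 (−0.47), MEF2C (−0.44 ± 0.10) and TBX18 (−0.26) fell, while TBX3 (0.66 ± 0.13), TCF21 (0.52 ± 0.09), TBX2 (0.44 ± 0.08), NFATC1 (0.37) and FOXO1 (0.32) rose. Among 23 targets of TGF-beta, BMP and YAP, 4 fell (SMAD6, −0.47 ± 0.10; ANKRD1, −0.29 ± 0.06; AJUBA, −0.27 ± 0.07; TEAD1, −0.23 ± 0.05) and 3 rose (TGIF1, 0.36 ± 0.06; GREM1, 0.31 ± 0.08; SMAD7, 0.19).

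Contractile, matrix and growth programmes were near the shares over all tested genes, 5.17% higher and 2.04% lower. Of 24 contractile and actin genes 0 rose and 1 fell, SYNPO2 (−0.36 ± 0.07), with ACTA2 at −0.06 ± 0.05 and MYH11 at 0.15 ± 0.07. Of 28 matrix genes 1 rose, tenascin C (TNC, 0.39 ± 0.07). Of 25 ribosome-making genes 1 rose (BYSL, 0.23 ± 0.06) and of 14 G1/S genes 1, the cell cycle inhibitor CDKN1A (0.21 ± 0.05), while 0 of 15 G2/M genes were called (median −0.08). The BYSL call was lost with upper-quartile scaling (adjusted p = 0.056). Sterol synthesis had 1 of 22 higher, the cholesterol exporter ABCA1 (0.80 ± 0.14), and 1 lower. Of 15 stress response genes of the endoplasmic reticulum 1 rose (HSPA5, 0.26 ± 0.05). Glycolysis and hypoxia genes had a larger share higher, 3 of 16 or 18.8% (SLC2A6, NDRG1 and EPAS1). Of 27 Notch and Wnt genes 2 rose (RSPO3, 1.15 ± 0.18, and WNT5A, 0.71 ± 0.16) and 2 fell (FZD1, −0.25 ± 0.05, and WNT2B, −0.18 ± 0.05), which is 7.41% each way.

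S100A4 without PDGF-BB, against control, was compared over the same 12105 genes from the other 6 libraries. It raised 794 genes (6.56%) and lowered 536 (4.43%). Of the 626 genes that rose with S100A4 on top of PDGF-BB, 437 also rose with S100A4 alone, which is 69.8% of the 626 and 55.0% of the 794. Of the 247 that fell, 110 also fell with S100A4 alone, which is 44.5% of the 247 and 20.5% of the 536. A single gene was called in opposite directions. The log2 fold change against control was positive for 606 of the 626 and for 44.4% of all tested genes, with a median of 0.37 among the 626, against 0.39 on top of PDGF-BB. Both comparisons share no library but come from the same replicate numbers. With S100A4 alone 15 of 25 NF-kB genes, 5 of 7 chemokines, 6 of 12 cytokines and 11 of 22 adhesion genes rose, and 0 fell in each. Without the block 72 genes rose and 1 fell with S100A4 alone, against control, and with upper-quartile scaling 712 rose and 791 fell. The higher count was 433 without replicate 1, 452 without replicate 3 and 513 without S100A4 replicate 2, and the lower count lay between 142 (without replicate 3) and 387 (without control replicate 1).

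**Figure D4:**
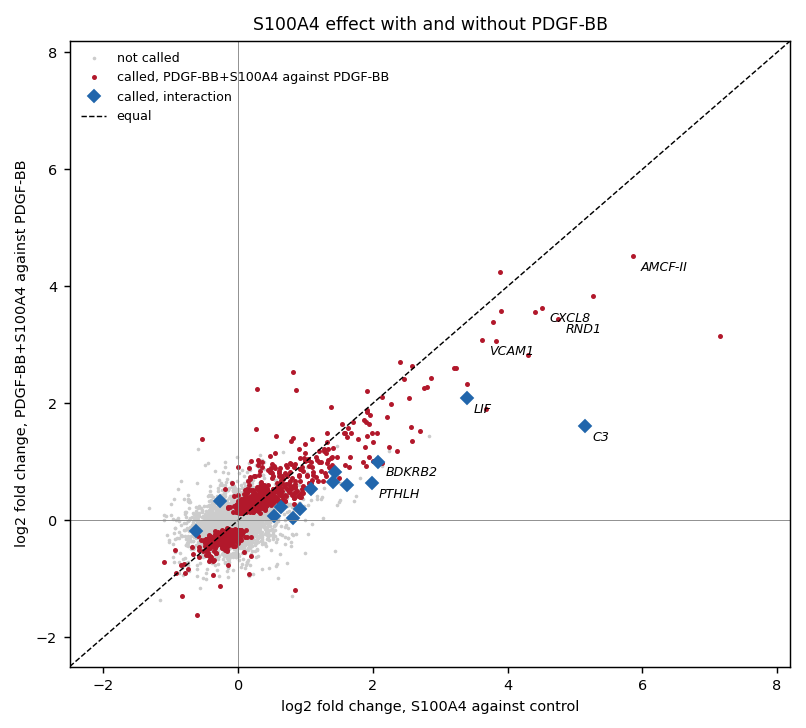
Log2 fold change of PDGF-BB+S100A4 against PDGF-BB (vertical) and of S100A4 against control (horizontal) for the tested genes, red where called in the first and blue where the difference between both was called, with the dashed line at equality. Most genes with large rises lie under the line; 1 gene (ENSSSCG00000016254) lies outside the range, and the red point furthest to the right is CSF2, whose control libraries held 0 counts, so that its place on the horizontal axis depends on the prior count.

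As folds, large rises tended to be smaller when PDGF-BB was present. Of 78 genes that were at least 2-fold higher in both comparisons, 68 had the smaller log2 fold change with PDGF-BB, with a median difference of −0.32. This count follows from fold changes that chose the genes and is a description. CXCL8 rose 12.4-fold with S100A4 on top of PDGF-BB and 22.8-fold with S100A4 alone, AMCF-II 22.9-fold and 58.5-fold, VCAM1 8.47-fold and 12.3-fold, RND1 10.9-fold and 27.0-fold, and none of these 4 differences was called. IL6 (5.35-fold and 5.53-fold), NFKBIA (3.5-fold and 3.89-fold) and NFKB1 (2.00-fold and 2.12-fold) had similar folds. The test of the difference itself, the interaction in the same fit, called 14 genes (0.116%), of which 12 had the lower and 2 the higher log2 fold change with PDGF-BB. At an unadjusted p under 0.05 it had 1170 genes (9.67%). DESeq2 called 42 lower and 10 higher. Without the block 0 were called, with 145 at an unadjusted p under 0.05. The calls depended on single libraries: 1 lower and 0 higher were called without replicate 1, 98 and 19 without replicate 2, and 2 and 0 without replicate 3, and leaving out 1 library at a time gave 1 to 26 lower and 0 to 7 higher genes. The median half-width of the 95% interval of this difference was 0.25 on the log2 scale. It was taken with only the 6 residual degrees of freedom of the fit, fewer than the test uses, so it is on the wide side.

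**Figure D5:**
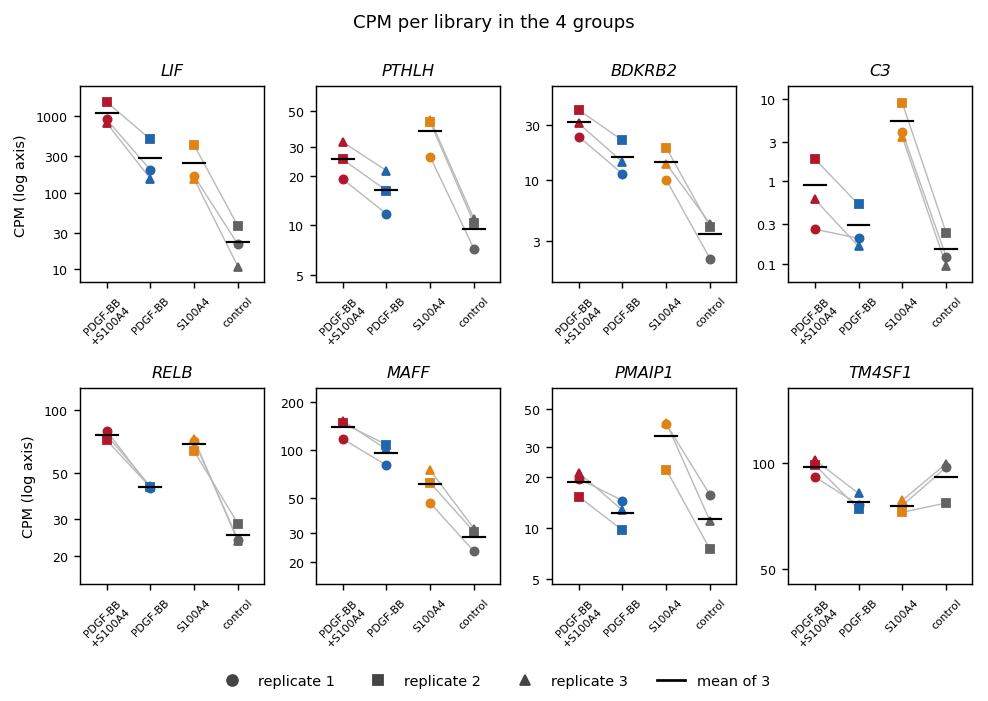
CPM per library on a log axis in the 4 groups for 8 of the 14 genes whose S100A4 effect differed with PDGF-BB present, with grey lines joining same-numbered libraries of PDGF-BB+S100A4 and PDGF-BB and of S100A4 and control, and black bars at the mean of 3. The log2 fold change between PDGF-BB+S100A4 and PDGF-BB is smaller than that between S100A4 and control in 7 genes, and TM4SF1 has opposite slopes.

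The gene with the smallest p of the interaction was PTHLH, which encodes a peptide that relaxes vascular smooth muscle. It had 19.1, 25.2 and 32.2 CPM with PDGF-BB+S100A4, 11.7, 16.3 and 21.5 CPM with PDGF-BB, 26.1, 42.6 and 44.0 CPM with S100A4, and 7.17, 10.3 and 10.9 CPM in control. S100A4 thus raised it 1.55-fold on top of PDGF-BB and 3.95-fold alone (difference −1.35 ± 0.11, adjusted p = 0.00016), and its level with both proteins was below that with S100A4 alone in each replicate number. LIF behaved otherwise: its S100A4 effect was 4.25-fold on top of PDGF-BB and 10.5-fold alone (difference −1.31 ± 0.20, adjusted p = 0.029), yet its level was highest with both proteins, at 819 to 1542 CPM, against 152 to 499.8 CPM with PDGF-BB, 151 to 419 CPM with S100A4 and 10.8 to 36.6 CPM in control. BDKRB2 had the same order, with 23.7 to 40.2 CPM with both proteins, 11.3 to 21.9 CPM with PDGF-BB, 10.0 to 19.0 CPM with S100A4 and 2.10 to 4.20 CPM in control (difference −1.08 ± 0.15, adjusted p = 0.029).

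Among the 14 genes, the widest difference was in C3, the central complement component. Its counts were 6, 47 and 14 with PDGF-BB+S100A4, 5, 16 and 5 with PDGF-BB, 88, 229 and 90 with S100A4 and 3, 7 and 2 in control. S100A4 alone raised C3 35.4-fold (5.15 ± 0.29), and S100A4 on top of PDGF-BB 3.04-fold (1.61 ± 0.34, adjusted p = 0.010), a difference of −3.54 ± 0.55 (adjusted p = 0.029). All libraries with S100A4 alone were above all libraries with both proteins. The rise of C3 on top of PDGF-BB was lost without replicate 2 (adjusted p = 0.20), replicate 3 (0.13), PDGF-BB+S100A4 replicate 2 (0.13) or PDGF-BB replicate 2 (0.082), and of 7 complement genes tested it was the only one called. PMAIP1, a pro-apoptotic gene, was likewise lower with both proteins (19.6, 15.4 and 21.3 CPM) than with S100A4 alone (41.1, 22.1 and 41.8 CPM), against 14.5, 9.73 and 12.8 CPM with PDGF-BB and 15.7, 7.50 and 11.0 CPM in control (difference −1.0 ± 0.17, adjusted p = 0.044).

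Other genes of the 14 were raised by S100A4 alone and not called on top of PDGF-BB. NEDD4L, a ubiquitin ligase of ion channels, had 21.0, 24.2 and 21.0 CPM with both proteins and 20.1, 26.1 and 18.7 CPM with PDGF-BB, and 19.6, 29.4 and 18.9 CPM with S100A4 and 11.6, 16.5 and 10.4 CPM in control (difference −0.77 ± 0.12, adjusted p = 0.029). CEMIP, which takes part in hyaluronan breakdown, had 209.8, 205 and 87.2 CPM with both proteins and 186, 160.4 and 84.3 CPM with PDGF-BB, and 90.2, 103 and 36.0 CPM with S100A4 and 51.1, 46.5 and 21.7 CPM in control (difference −0.73 ± 0.11, adjusted p = 0.029). The EGR co-repressor gene NAB1 had a difference of −0.47 ± 0.07. In NEDD4L the 3 treated groups had overlapping levels, all above control. TM4SF1, a tetraspanin-like membrane protein, was the one gene raised on top of PDGF-BB (91.1, 98.6 and 102 CPM against 75.9, 73.8 and 81.7 CPM; 0.33 ± 0.06) and lowered by S100A4 alone (75.5, 72.2 and 78.1 CPM against 96.9, 76.7 and 99.3 CPM; −0.27 ± 0.07). In replicate 2 its difference from control was the smallest.

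Values of PDGF-BB against control are given beside these for single genes only, since that comparison shares the PDGF-BB libraries. CEBPD was 1.31 ± 0.19 with S100A4 on top of PDGF-BB and −1.94 with PDGF-BB against control, IRF1 0.78 ± 0.11 and −0.80, ABCA1 0.80 ± 0.14 and −1.09, and RSPO3 1.15 ± 0.18 and −0.85, all log2 fold changes. CCND1 was −0.34 ± 0.05 and 0.91. Other genes had the same sign in both, among them PLAU (0.68 ± 0.08 and 2.25), LIF (2.09 ± 0.13 and 3.58), HBEGF (0.91 ± 0.10 and 2.28), LURAP1L (−0.72 ± 0.16 and −2.59) and TRIM63 (−0.76 ± 0.16 and −1.62). VCAM1 (3.08 ± 0.17 and 0.11), NFKBIA (1.81 ± 0.07 and −0.22) and PDPN (2.60 ± 0.12 and −0.09) did not rise with PDGF-BB against control, where the adjusted p was 0.64, 0.032 and 0.67.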

How the data were processed

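RNA of 12 cultures was sequenced (TruSeq libraries, single-end reads of 100 nt, HiSeq4000, per the labels' protocols). The authors deposited 1 table of raw counts per gene and library. CASAVA 1.8.2, STAR 2.4, featureCounts 1.4.6 and the build Sscrofa11.1 are named, per the submitters' processing notes, and no source used here states how strand or multiply matching reads were treated. All columns matched a labelled sample. Library totals ran from 21455021 to 32448438 counts.

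From the counts, 12105 genes with at least 10 counts in 3 or more of the 6 PDGF-BB+S100A4 and PDGF-BB libraries were fitted over all 12 libraries with edgeR 4.0.16 (TMM scaling, quasi-likelihood test) in R 4.3.3, with group and replicate number as terms and Benjamini-Hochberg adjustment over all 12105 genes. The block was used because same-numbered libraries deviated together from their group means (r = 0.749 to 0.909 over 18 pairs, against −0.701 to 0.141 over 36 pairs with different numbers). The pairing is read from the data, since the labels do not tie a number to an animal. No 2 libraries of a group agreed within sampling noise. The script was tested on simulated data before use. Alternatives were no block, other scalings and filters, DESeq2 1.42.0, limma-voom (limma 3.58.1), a minimum fold of 1.2 and leaving out libraries. Log2 CPM within pairs used a prior count of 2.

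Genes named by rule had a symbol, a mean of at least 1 CPM, an adjusted p under 0.05 and the same direction in all 3 pairs, of which the 15 largest changes each way were taken. The rule added the 5 smallest p of the interaction each way. Up to 4 members of each of 36 gene lists, those with the smallest adjusted p, were also taken. A fixed set was always named: S100A4, AGER, TLR4, PDGFRB, ACTA2, MYH11, NFKBIA, VCAM1, CXCL8, LIF, PTHLH and IL6. The other interaction genes, the other called list members, TAGLN and the unnamed gene were added after their values were seen. Genes and lists were chosen with earlier results of these data known. Symbols came from a table of gene IDs and names, which gave one to 14572 of 21153 IDs, and coordinates from RefSeq's table of Sscrofa11.1. No promoter or protein sequences were used here. A few called list members are counted but not reported here by name.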

Additional observations from a re-analysis of the deposited data

Results flagged for a closer look

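The effect of S100A4 on 14 genes differed with PDGF-BB present from that without it, by edgeR's test of the interaction with replicate number as a block. In 12 of them the log2 fold change was lower on top of PDGF-BB. The differences (log2) were −3.54 for C3, −1.35 for PTHLH, −1.31 for LIF, −1.08 for BDKRB2, −1.0 for PMAIP1, −0.77 for NEDD4L, −0.75 for PXYLP1, −0.73 for CEMIP, −0.61 for RELB, −0.55 for MAFF, −0.47 for NAB1 and −0.41 for WTAP. PXYLP1, a phosphatase of proteoglycan synthesis, had 24.0, 28.2 and 26.9 CPM with PDGF-BB+S100A4, 16.5, 15.5 and 18.5 CPM with PDGF-BB, 22.3, 23.9 and 22.9 CPM with S100A4 and 7.82, 9.98 and 8.17 CPM in control, so the groups with S100A4 were alike in level and the PDGF-BB group lay between them and control. RELB, an NF-kB subunit, had 79.7, 71.8 and 76.0 CPM with PDGF-BB+S100A4, 42.4, 42.7 and 43.2 CPM with PDGF-BB, 71.1, 63.5 and 72.5 CPM with S100A4 and 24.0, 28.6 and 23.5 CPM in control.

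The difference was positive for 2 genes, 0.60 for TM4SF1 and 0.43 for IGFBP5. IGFBP5, which binds insulin-like growth factors, was lower with S100A4 both on top of PDGF-BB (−0.19 ± 0.05) and alone (−0.62 ± 0.05). None of the 14 was called without the replicate block.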

How the results depend on the processing

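The block by replicate number and the minimum fold decided most calls. Without the block 34 genes were higher and 0 lower in PDGF-BB+S100A4 against PDGF-BB, 72 higher and 1 lower in S100A4 against control, and 0 and 0 in the interaction. With a tested minimum fold of 1.2 the counts were 190 and 12, 258 and 35, and 0 and 1. The lower genes on top of PDGF-BB numbered 394 with upper-quartile scaling and 379 with the 6 libraries fitted alone, where the higher genes kept within 1.5 times. The interaction gave 16 higher and 69 lower genes with no count filter and 10 and 42 in DESeq2, against 2 and 12. Leaving out a library or a replicate number gave 278 to 795 higher and 40 to 625 lower genes on top of PDGF-BB, 433 to 744 and 142 to 387 for S100A4 against control, and 0 to 19 and 1 to 98 for the interaction. Where 2 libraries remained in a group, the spread was pooled over groups. Of the 111 named genes called, 97 lost their call without the block, 51 with the minimum fold, 9 in DESeq2, 5 in limma-voom and 53 in at least 1 fit with libraries left out. The causes were not tested. Upper-quartile scaling moved the median log2 fold change of all genes to −0.024, against 0.0011. A search of promoters was not run, and the interaction cannot be had from 6 libraries. At these depths 1 CPM is 23.0 to 31.0 counts, so genes under about 1 CPM rest on few reads.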
